A study of Mus musculus with 3 samples.

Results

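Voltage-gated sodium channels were described in sensory neurons of the mouse embryo through 9 of their genes. Scn1a, Scn2a, Scn3a, Scn8a, Scn9a, Scn10a and Scn11a encode pore-forming alpha subunits, and Scn2b and Scn3b encode auxiliary beta subunits. The genes were taken by name from the 41388 genes counted, and all 9 were found. A voltage-gated sodium channel opens when the membrane is depolarised and lets sodium in, which drives the upstroke of the action potential. An alpha subunit forms the pore alone, and beta subunits, small membrane proteins with an immunoglobulin domain, change its gating and its delivery to the membrane. In the adult dorsal root ganglion, the cluster of sensory cell bodies beside the spinal cord, the channels blocked by the toxin tetrodotoxin occur in many neuron classes, whereas 2 channels that resist it, Nav1.8 and Nav1.9, are known from nociceptors, the neurons that respond to damaging stimuli.

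RNA came from dorsal root ganglia of spinal levels T11 to S1, taken from C57BL/6 embryos at 14.5 dpc (days after conception) that all carried a Ret-EGFP reporter, dissociated and sorted for fluorescence. The genotype label writes the reporter as Tg(Ret-EGFP)SJ, while the series text describes EGFP knocked into the Ret locus in heterozygotes; Ret encodes the receptor kinase for GDNF family ligands. The 3 libraries, A, B and D, are pools of 100 ganglia from 5 embryos (3 male, 2 female), 100 ganglia from 6 embryos (2 male, 4 female) and 80 ganglia from 4 embryos (3 male, 1 female), and they form 1 group with no reporter-negative or untreated cells. Their total counts were 20181558, 20355302 and 29061086. All 12 neuronal marker genes listed exceeded 10 TPM, with a summed level of 41466 to 46464 TPM per library, so markers of the labelled cell type were present; glial markers summed to 561, 887 and 949 TPM in A, B and D.

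The feature that separates tetrodotoxin-sensitive from resistant channels lies in the first of 4 pore loops of the alpha subunit and can be read in the coding sequence. The stretch below joins exons 9 and 10 of the longest coding transcript of each gene shown, and the capital codon is the place known to carry an aromatic residue in sensitive channels and a serine in resistant ones. It is shown because this difference defines the class of Scn10a and Scn11a used in the comparisons. Sequences are from GENCODE M21 on GRCm38, 5′ to 3′ on the coding strand.
Scn2a: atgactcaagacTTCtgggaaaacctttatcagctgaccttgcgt
Scn3a: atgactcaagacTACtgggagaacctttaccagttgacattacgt
Scn8a: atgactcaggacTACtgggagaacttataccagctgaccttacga
Scn9a: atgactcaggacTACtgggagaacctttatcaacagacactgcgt
Scn10a: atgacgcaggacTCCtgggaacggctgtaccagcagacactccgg
Scn11a: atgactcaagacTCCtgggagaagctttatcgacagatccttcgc
The codon read TTC in Scn2a, TAC in Scn3a, Scn8a and Scn9a, and TCC in Scn10a and Scn11a. It lies at chr2:66549001-66549003 in Scn9a (minus strand) and at chr9:119666387-119666389 in Scn10a (minus strand). Over the 45 bases, Scn9a shared 38 with Scn3a, 37 with Scn11a and 34 with Scn10a.

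The genes lie in a few places of the genome (GRCm38). Scn3a, Scn2a, Scn1a and Scn9a are clustered on chromosome 2, from 65457118 (the end of Scn3a) to 66634962 (the start of Scn9a, which is on the minus strand). Scn10a (119608456 to 119719032) and Scn11a (119753763 to 119825456) are neighbours on chromosome 9, Scn3b (40269216 to 40291618) and Scn2b (45117876 to 45130070) lie elsewhere on that chromosome, and Scn8a is on chromosome 15 (100870683 to 101045929). Coding sequences of the chromosome 2 genes were 76.6% to 83.2% identical, against 62.5% between Scn10a and Scn11a. The longest identical run was 188 bases, between Scn1a and Scn2a, and 184 bases between Scn3a and Scn9a, so reads inside such runs may not have been assignable to 1 gene. The beta genes were far apart at 46.4% identity, with no identical run over 7 bases. Only Scn9a overlapped exons of another gene, the antisense Gm13629, over 180 bases (1.41% of its length); Gm13629 had 13, 2 and 8 counts in A, B and D.

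All 9 genes were expressed. Levels are given as TPM (counts divided by gene length and scaled to the same total in each library), because the genes range from 4562 to 12772 exonic bases. Every gene had at least 218 counts in each library. Mean levels ran from Scn3b at the top through Scn9a, Scn2b, Scn10a, Scn3a, Scn2a, Scn11a and Scn8a to Scn1a at the bottom, with a median of 16.6 TPM against 10.8 TPM over the 13897 genes that averaged at least 1 TPM. Of the 8 neighbouring pairs in this order, 5 differed by less than 1 SD of their log2 ratio within libraries: Scn3b and Scn9a (0.87 ± 1.44), Scn9a and Scn2b (0.44 ± 1.15), Scn2a and Scn11a (0.29 ± 0.90), Scn11a and Scn8a (0.34 ± 0.65), and Scn8a and Scn1a (0.45 ± 0.59; all SD, n = 3). The other 3 steps exceeded 1 SD: Scn2b over Scn10a (0.71 ± 0.68), Scn10a over Scn3a (1.45 ± 1.06) and Scn3a over Scn2a (0.82 ± 0.23). The first 2 of these depended on the length correction. As CPM (counts scaled by library total, with no length correction) Scn2b over Scn10a was -0.37, 0.06 and 0.96 for libraries A, B and D, and Scn10a over Scn3a was -0.03, 1.72 and -0.20. With coding length Scn2b over Scn10a was larger, at 2.81, 3.25 and 4.14, and Scn10a over Scn3a was -0.04, 1.71 and -0.20. Mean Scn2b over Scn10a was 0.33 without D, and mean Scn10a over Scn3a 0.84 without B, both as TPM. By TPM, Scn3b, Scn9a, Scn2b and Scn10a held the top 4 places in each library, in a different order each time.

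**Figure D1:**
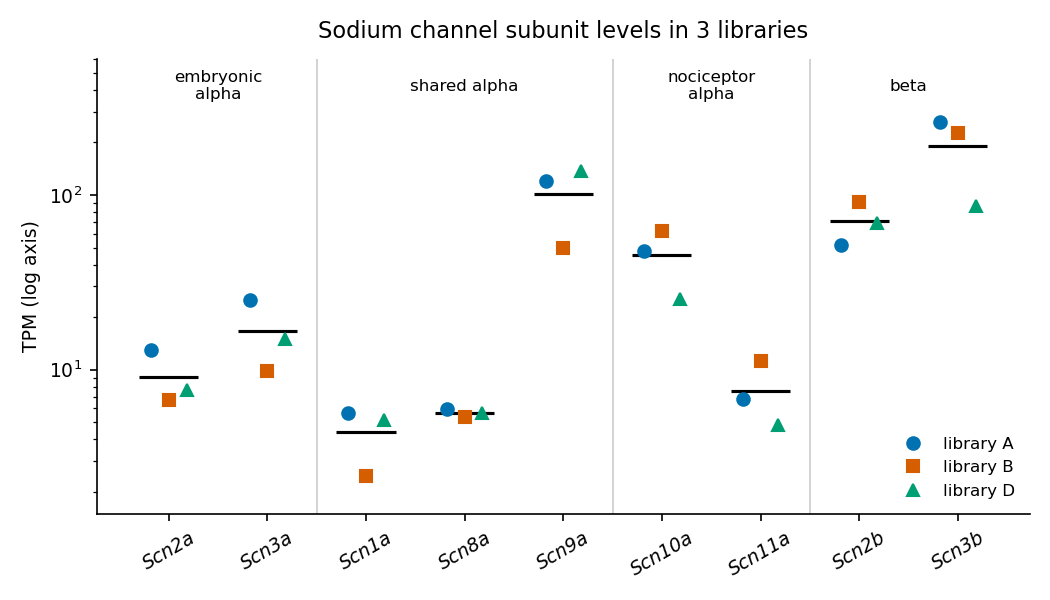
Level of each sodium channel gene in TPM (log axis), with 1 point per library (A, B, D) and a bar at the mean of the 3. Scn3b and Scn9a stand highest, Scn8a has its 3 points nearly together, and the other 8 genes spread by 1.77-fold to 3.03-fold between their highest and lowest library.

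Among the embryonic alphas, Scn3a was the higher. Scn3a encodes Nav1.3, the channel of immature neurons that in rats is expressed again after nerve injury, and stood at 25.1 TPM in A, 9.78 TPM in B and 14.9 TPM in D (16.6 ± 7.80 TPM, SD, n = 3). Scn2a encodes Nav1.2, a channel of unmyelinated and developing axons, and stood at 13.0 TPM in A, 6.67 TPM in B and 7.69 TPM in D (9.11 ± 3.38 TPM). Both were highest in A and lowest in B. Scn3a exceeded Scn2a in 3 of 3 libraries, 1.77-fold on average (log2 ratio 0.82 ± 0.23), and a two-sided exact permutation test that flips the signs of the 3 log2 ratios gave p = 0.25 (0.375 after Benjamini-Hochberg adjustment over the 15 gene pairs). That p is the lowest the test can give with 3 libraries, so no ratio below can pass 0.05. Because the sample is bulk RNA, fewer expressing cells and less RNA per cell cannot be told apart.

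The shared alphas, found in several classes of adult sensory neuron, were dominated by 1 gene. Scn9a encodes Nav1.7, a channel of the peripheral axon whose loss in humans abolishes pain, and was the highest alpha on average, at 119.9 TPM in A, 50.0 TPM in B and 137 TPM in D (102 ± 46.2 TPM). It ranked above 89.4%, 78.4% and 91.7% of the genes averaging at least 1 TPM in the 3 libraries. Scn8a encodes Nav1.6, the channel of mature nodes of Ranvier, and was the steadiest member at 5.97 TPM in A, 5.39 TPM in B and 5.62 TPM in D (5.66 ± 0.295 TPM). Scn1a encodes Nav1.1, known from myelinated sensory neurons, and stood at 5.65 TPM in A, 2.47 TPM in B (95% exact Poisson interval of the count, 2.15 to 2.82 TPM) and 5.12 TPM in D. Its 218 counts in B were the fewest of any member. Scn9a exceeded Scn8a 16.6-fold (log2 ratio 4.05 ± 0.74) and Scn3a 6.08-fold (2.60 ± 0.52), while Scn3a exceeded Scn8a 2.73-fold (1.45 ± 0.61), each in 3 of 3 libraries (exact p = 0.25, adjusted 0.375). Scn1a lay below Scn2a in 3 of 3 libraries (log2 ratio -1.07 ± 0.44, exact p = 0.25, adjusted 0.375).

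The nociceptor alphas were both present but unequal. Scn10a encodes Nav1.8, which carries most of the sodium current of the nociceptor action potential, and stood at 47.7 TPM in A, 62.5 TPM in B and 25.3 TPM in D (45.2 ± 18.7 TPM). Scn11a encodes Nav1.9, which passes a persistent current near the resting potential, and stood at 6.78 TPM in A, 11.2 TPM in B and 4.82 TPM in D (7.59 ± 3.26 TPM). Both were highest in B and lowest in D, opposite in place to Scn9a. Their ratio was among the steadiest measured: Scn10a exceeded Scn11a 5.91-fold, with log2 ratios of 2.82, 2.48 and 2.39 (mean 2.56 ± 0.22, 3 of 3 libraries, exact p = 0.25, adjusted 0.375). The ratio of Scn9a to Scn10a was in contrast 1.33, -0.32 and 2.44 on the log2 scale in A, B and D (exact p = 0.5, adjusted 0.577), with a mean of 1.15 that was 1.88 without B and 0.50 without D. The sign in B turned with the length used: the ratio was 2.32, 0.67 and 3.43 as CPM (mean 2.14, exact p = 0.25) and 2.30, 0.65 and 3.41 with coding length (mean 2.12, exact p = 0.25). Nociceptor markers, 9 genes among them Calca and P2rx3, summed to 1244 TPM in A, 1420 TPM in B and 1065 TPM in D, but the single genes did not share 1 order: Calca stood at 139.7, 252 and 218 TPM and P2rx3 at 432, 346 and 299.6 TPM in A, B and D, and the median deviation of the 9 from their own means (log2 CPM) was -0.34, 0.20 and -0.02. The part of nociceptor content in these values was not tested.

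Set together, the 7 alphas summed to 224 TPM in A, 148 TPM in B and 201 TPM in D. Scn9a made up 53.5%, 33.8% and 68.4% of this pool in A, B and D, and Scn10a 21.3%, 42.2% and 12.6%. In B alone Scn10a was the larger of the pair by TPM; by share of alpha counts, with no length correction, Scn9a was the larger there too (46.3% against 29.0%). The embryonic alphas held 17.0%, 11.1% and 11.3%, and Scn1a, Scn8a and Scn11a each held at most 7.56% in any library.

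**Figure D2:**
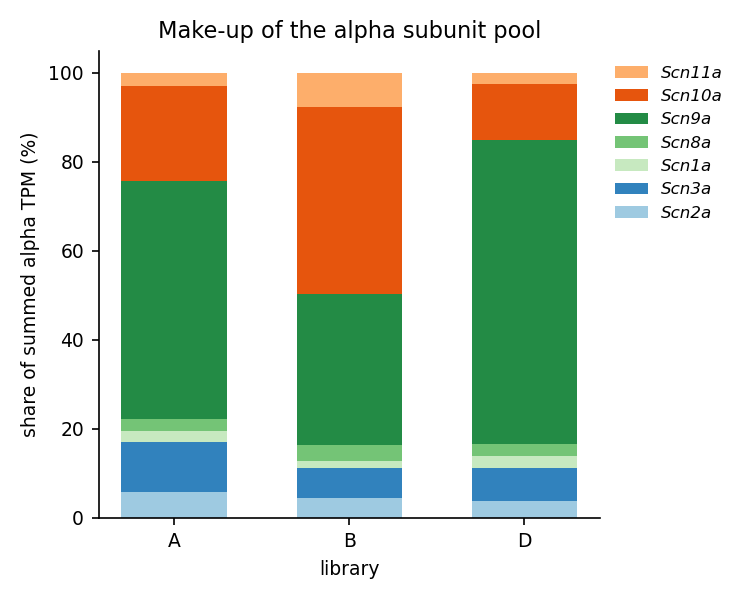
Share of each alpha gene in the summed alpha TPM of libraries A, B and D, in percent. Scn9a and Scn10a together fill most of each bar, and their shares are 33.8% and 42.2% in B and 68.4% and 12.6% in D; without the length correction Scn9a is the larger in B too (46.3% and 29.0% of alpha counts).

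Between classes, embryonic alphas lay below shared alphas in every library. The log2 ratio of their summed TPM was -1.79 for A, -1.82 for B and -2.71 for D (mean -2.11 ± 0.53, 4.30-fold, exact p = 0.25, adjusted over 4 class ratios 0.5). This rests on Scn9a: with Scn9a counted among the nociceptor alphas the ratio was 1.28, and with the mean of log2(TPM + 0.1) in place of the sum it was -0.17. Nociceptor alphas lay above embryonic alphas in 3 of 3 libraries, with log2 ratios of 0.52, 2.16 and 0.41 (mean 1.03 ± 0.98, exact p = 0.25, adjusted 0.5). The mean was 0.47 without B, 1.29 without A, 1.34 without D, 0.58 with the mean of logs and 2.67 with Scn9a among the nociceptor alphas. The direction depended on gene length: as CPM the ratio was -0.32, 1.35 and -0.43 in A, B and D (mean 0.20, exact p = 1.00), and with coding length -0.30, 1.37 and -0.41 (mean 0.22, exact p = 1.00), where coding sequence makes up 91.6% of the length of Scn10a and 46.9% of that of Scn3a. Nociceptor against shared alphas had no single direction by TPM, with log2 ratios of -1.27 for A, 0.35 for B and -2.30 for D (mean -1.07 ± 1.33, exact p = 0.5, adjusted 0.5), with a mean of -1.78 without B, -0.46 without D, -2.07 as CPM and -2.03 with coding length (below 0 in 3 of 3 libraries on both); it was 0.41 with the mean of logs and 3.95 with Scn9a among the nociceptor alphas.

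**Figure D3:**
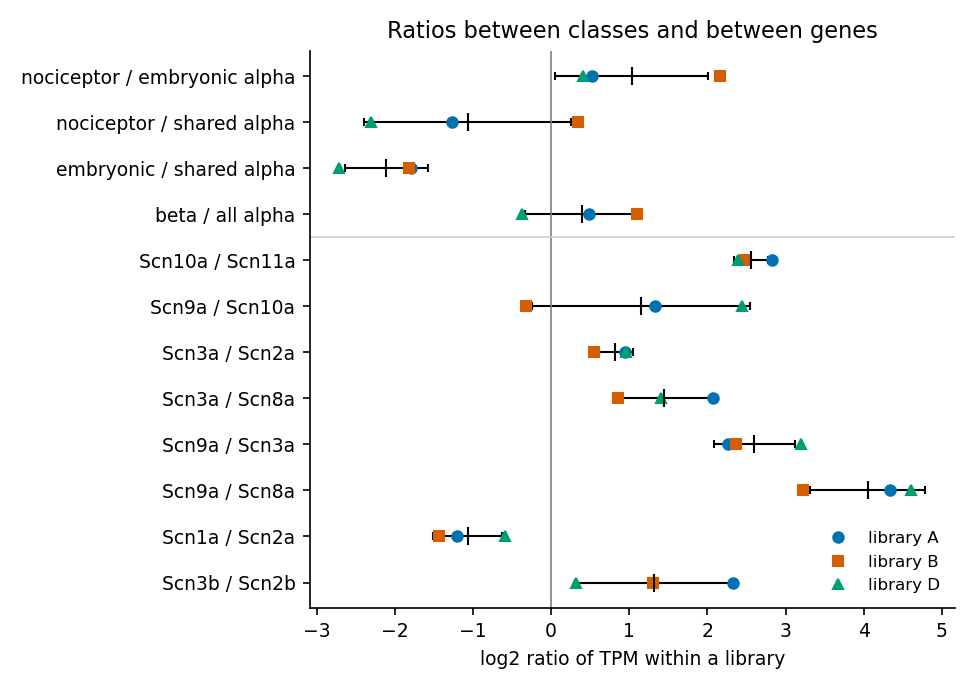
Log2 ratios of TPM within each library, with 1 point per library and the mean ± SD of the 3 in black, for 4 pairs of classes (top) and 8 pairs of genes. The 3 points lie on 1 side of 0 for nociceptor over embryonic alphas (on both sides as CPM) and for embryonic over shared alphas, and on both sides for nociceptor over shared alphas, beta over all alphas and Scn9a over Scn10a (the first and last lie on 1 side as CPM).

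The beta subunits summed to 155 to 317 TPM per library, and the alphas to 148 to 224 TPM. Scn3b encodes beta3, which binds the alpha without a covalent bond and is known from embryonic neurons and small sensory neurons, and was the highest member at 261 TPM in A, 225 TPM in B and 86.1 TPM in D (191 ± 92.3 TPM). Scn2b encodes beta2, which is joined to the alpha by a disulfide bond, and stood at 51.8 TPM in A, 91.6 TPM in B and 69.1 TPM in D (70.8 ± 20.0 TPM). Scn3b was lowest in D and Scn2b lowest in A, so their ratio ran from a log2 value of 2.33 in A over 1.30 in B to 0.32 in D (mean 1.32 ± 1.01, 3 of 3 libraries, exact p = 0.25, adjusted 0.375; 0.81 without A, 1.33 without B, 1.81 without D). The log2 ratio of summed beta to summed alpha TPM was 0.48 for A, 1.10 for B and -0.37 for D (mean 0.40 ± 0.74, exact p = 0.5, adjusted 0.5), and 0.05 without B. This ratio hangs on length and on how members are combined: it was -0.61 as CPM, 2.59 with coding length and 2.98 with the mean of log2(TPM + 0.1), and only 14.1% of the length of Scn2b and 11.6% of that of Scn3b is coding.

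Of the related genes outside the 9, Scn7a was the most abundant of those given here. Scn7a, a relative of the alphas that responds to sodium concentration and not to voltage and lies near Scn9a on chromosome 2, stood at 109.6 TPM in A, 58.2 TPM in B and 92.2 TPM in D, lowest in B like its neighbours. Nalcn, the sodium leak channel, averaged 4.51 ± 1.78 TPM. Scn4b, which encodes the beta4 subunit, had 0, 13 and 1 counts, where the 0 in A allows up to 0.149 CPM. Scn4a, the skeletal muscle channel, averaged 0.303 ± 0.139 TPM. The muscle marker list summed to at most 0.431 TPM in any library.

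Of 21 listed genes for proteins that bind or place the channels, 18 averaged at least 1 TPM and 15 at least 10 TPM. Of all 41388 genes counted, 13897 averaged at least 1 TPM. These are RNA levels, and protein was not measured. Fgf13, an intracellular factor that binds the alpha subunit's tail, stood at 1013 TPM in A, 1026 TPM in B and 966 TPM in D. S100a10, an annexin light chain that helps Nav1.8 reach the membrane, averaged 2423 ± 686 TPM, Dpysl2, whose product CRMP2 regulates Nav1.7 at the surface, 4271 ± 972 TPM, and Cntn1, an adhesion molecule that binds beta subunits, 70.8 ± 19.8 TPM. Nedd4l, a ubiquitin ligase that removes channels from the membrane, averaged 18.7 ± 2.61 TPM. Ank3, the ankyrin that anchors channels at the axon initial segment, averaged 8.28 ± 0.832 TPM, whereas Sptbn4, the spectrin of that site, averaged 0.200 ± 0.0221 TPM and Rangrf had no counts, which allows up to 3 in each library. Of 11 listed regulators, 10 averaged at least 1 TPM: Isl1 (494 ± 49.5 TPM) and Pou4f1 (419 ± 26.6 TPM), homeodomain factors of sensory neurons, were high, and Rest, which represses neuronal genes including Scn2a in other cells, was the exception at 0.778 ± 0.120 TPM.

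Sodium channel genes took different places in the 3 libraries, although no member passed the test for variation. On a log2 CPM scale with TMM scaling factors (edgeR's correction for library composition), B lay 1.01 below the mean of the 3 libraries for Scn9a, 0.85 below for Scn1a, 0.76 below for Scn3a, 0.49 below for Scn2a and 0.18 below for Scn8a, and above it for Scn10a (0.46), Scn11a (0.54), Scn2b (0.30) and Scn3b (0.28). Scn3b instead lay 0.77 below its mean in D. On this scale Scn9a had the widest range, 3.45-fold (by TPM it was Scn3b, at 3.03-fold), above that of 97.0% of genes, and Scn8a a narrow one of 1.31-fold; the median range was 1.96-fold over the members and 1.60-fold over the 13530 genes tested. By edgeR's goodness-of-fit test, which compares a gene's spread between libraries with that of genes at a like level, 0 of 9 members had an adjusted p under 0.05, against 0.177% of all genes (24 genes; 7 without A, 2 without B, 27 without D). At an unadjusted p under 0.05 it was 1 member, Scn9a, against 6.11% of all genes, and 2 members without A (4.98% of all genes), 0 without B (5.14%) and 4 without D (5.10%). With 3 libraries this test has low power for ranges of the members' size, so a count of 0 is no sign that they did not vary. The edgeR adjusted p of Scn9a was 0.488, and 0.259 to 0.621 over the settings that kept all libraries. DESeq2 marked 0 of 9 members as dispersion outliers, against 0.0727% of the genes with any count. The coefficient of variation that edgeR estimated over all genes was 30.3%.

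Transcript composition and length also differed between these genes, and their part in the values was not tested. The chromosome 2 genes have transcripts of 42.1% to 43.4% GC, and the other members 47.8% to 52.8%. Among all tested genes with under 45% GC, 45.2% were lowest in B, against 13.6% of genes over 55% GC; among genes over 10 kb long it was 46.9%. With the trend of each library on GC removed, B lay 0.88 below the mean for Scn9a, 0.74 below for Scn1a, 0.63 below for Scn3a and 0.38 below for Scn2a, and with the length trend removed 0.89, 0.76, 0.64 and 0.44 below. Marker lists also moved: mesenchymal genes summed to 70.9 TPM in B against 19.2 TPM in A and 19.4 TPM in D, with 6 of 8 averaging at least 1 TPM and 1 of 7 tested called by edgeR (adjusted p = 5.8e-05), and glial genes were lowest in A (561 TPM) with 7 of 10 at 1 TPM. Sympathetic neuron genes, whose cells also use Scn9a, summed to 33.8 TPM in A, 24.6 TPM in B and 13.5 TPM in D, with 3 of 9 averaging at least 1 TPM and their defining genes Dbh at 2.47 TPM and Phox2a at 0.235 TPM on average. Erythroid genes summed to 84.8 TPM in A, 74.8 TPM in B and 304 TPM in D, lowest in B and highest in D as Scn9a was. A and B lay close for this sum, but not for Scn9a (119.9 TPM in A, 50.0 TPM in B). Hbb-bs was lowest in A (26.0 TPM, against 28.5 TPM in B), and the other listed erythroid genes were lowest in B. Of 4 erythroid genes tested, 2 were called by edgeR (adjusted p = 0.0223 and 0.0267), against 0.177% of all genes. Endothelial genes summed to at most 4.52 TPM and macrophage genes to at most 7.34 TPM. The part of these cells in the differences was not tested.

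**Figure D4:**
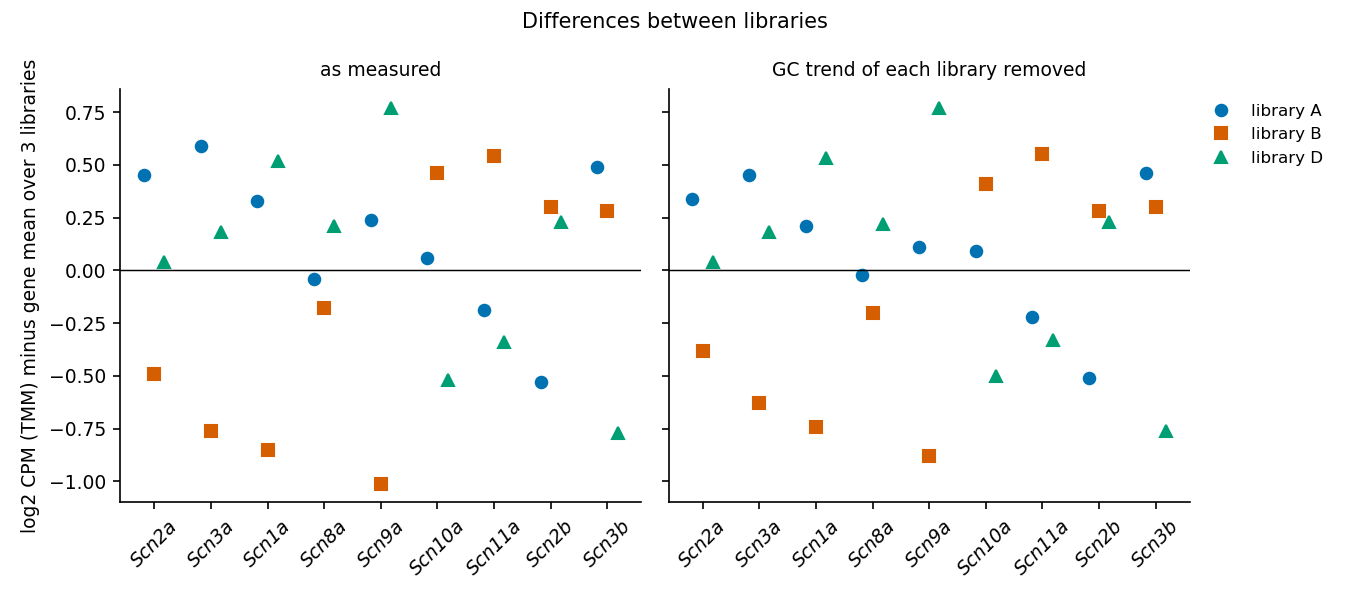
Log2 CPM (TMM scaling) of each member in libraries A, B and D minus its mean over the 3, as measured (left) and with each library's trend on transcript GC removed (right). Scn2a, Scn3a, Scn1a, Scn8a and Scn9a are lowest in B in both panels, and Scn10a and Scn11a are highest in B.

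Other genes shared these profiles across the 3 libraries. The 3 nearest to Scn9a among 8578 genes, by Euclidean distance between the 3 log2 deviations, were Golgb1 (0.024), Resf1 (0.119) and Top1 (0.125), and 15 genes lay within 0.25. Nearest to Scn1a, the member with the next widest range on the TMM scale (2.59-fold, against 2.55-fold for Scn3a), were Ift74 (0.035), Rsf1 (0.082) and Lrif1 (0.082), with 47 genes within 0.25. A likeness over 3 libraries describes these pools only. Of the lists of channel-related genes, 0 of 20 tested partner genes and 0 of 11 regulators were called by edgeR (adjusted), and so were 0 of the 3 other sodium channel genes tested. Over all genes 0.177% were called, so lists this short would be unlikely to hold a called gene. Of the listed genes, Nrcam (edgeR adjusted p = 0.736) and Prdm12 (edgeR adjusted p = 0.801) had an unadjusted p under 0.05. The same was true of 6.11% of all genes, so these lists did not stand out.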

How the data were processed

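RNA of 3 pooled libraries was measured, amplified from 10 ng of total RNA with the SMARTer Ultra Low Input kit and 12 PCR cycles, per the labels. The authors deposited raw counts per Ensembl gene with exon coordinates and lengths. The build was GRCm38.p2 and the tools Subread and featureCounts 1.4.5, per the submitters' processing notes; the handling of strand and of reads with several matches is not given in the sources used here. The deposited CPM and RPKM equalled the counts rescaled (largest differences 4.7e-11 and 2.7e-11). No molecular identifiers are described, so intervals cover counting error only; the pools hold different embryos, so the spread between libraries mixes pool and technical differences.

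Symbols came from GENCODE M21 (40254 of 41388 genes matched). TPM was computed from count and deposited length over all genes. Ratios were taken within libraries and tested by flipping their signs in an exact two-sided permutation test (smallest p 0.25), with at least 10 counts per gene. Classes were embryonic (Scn2a, Scn3a), shared (Scn1a, Scn8a, Scn9a) and nociceptor (Scn10a, Scn11a) alphas and betas. Variation between libraries was assessed in R 4.3.3 with edgeR 4.0.16 (TMM, filterByExpr, intercept-only fit, trended dispersion, deviance goodness-of-fit, Benjamini-Hochberg at 0.05), which all 9 members entered; the quasi-likelihood test needs 2 groups. The script was first tested on simulated data. Deviations used a prior count of 2. Transcript GC is that of the longest GENCODE transcript; coding sequences were aligned with mafft 7.526. DESeq2 1.42.0, Python 3.11.15, numpy 2.4.6, pandas 2.3.3, scipy 1.17.1, Biopython 1.88 and matplotlib 3.10.9 were also used. The members, classes and lists were chosen with earlier results of these data known. Named genes are all members, listed genes averaging at least 10 TPM or under 1 TPM, the 3 genes (mean CPM of at least 10) most like each of the 2 most variable members, and genes overlapping a member's exons; some genes that meet this rule, and 1 sequence, are not reported here; Nalcn and Ank3 fall outside that rule and were named after their values were seen.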

Additional observations from a re-analysis of the deposited data

How the results depend on the processing

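Leaving out 1 library gave a log2 ratio of 0.47 to 1.34 for nociceptor over embryonic alphas, -1.78 to -0.46 for nociceptor over shared, -2.26 to -1.80 for embryonic over shared and 0.05 to 0.79 for beta over all alphas, and 2 to 27 genes varying between libraries. Some ratios changed sign: nociceptor over shared alphas was 0.41 with the mean of logs and 3.95 with Scn9a among the nociceptor alphas, which by construction also turned embryonic over shared to 1.28, and beta over all alphas was -0.61 as CPM. As CPM, the log2 ratio of Scn3b to Scn9a was -0.33 and that of Scn11a to Scn8a -0.72; with coding length, an alternative chosen after the data were seen, Scn9a to Scn2b was -1.28 and Scn11a to Scn8a -0.55. Over leave-one-out values, Scn2a to Scn11a ran from -0.04 to 0.80 and Scn11a to Scn8a from -0.02 to 0.62. With the length trend removed 55 genes varied, against 24; the cause was not tested. No member passed the variation test under any of 10 edgeR settings (lowest adjusted p 0.177, Scn9a without D; edgeR); the test has low power for ranges of their size, so this is no sign of stability. Removal of the GC trend was also chosen after the data were seen. The alternative with RefSeq protein lengths was not run. Ratios were paired within libraries, but no pairing of libraries between groups was possible because the libraries form 1 group. Depth limits Scn1a and Scn11a most, with 218 and 300 counts in their lowest libraries.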
